A study of Homo sapiens with 20 samples.

Results

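The 34 genes described here carry glucose from the cell membrane to pyruvate and lactate or into the pentose phosphate pathway, and 1 of them, TIGAR, is a textbook p53 target. They were taken by symbol and not by a cutoff on measured values, although earlier results of these data were known when they were chosen. All 34 were among the 27697 genes that were tested. By role they comprise 4 transporters of glucose and lactate, 8 genes from hexokinase to aldolase, 9 genes from triose phosphate to lactate, 4 pyruvate dehydrogenase kinases, 4 genes of fructose-2,6-bisphosphate and 5 genes of the pentose phosphate pathway. The cells were NGP cells, a neuroblastoma cell line, so that all results rest on 1 genetic background. 10 samples were treated with nutlin-3 (8 µM of the racemic mixture), a small molecule that blocks MDM2 and so releases p53 from it, and 10 samples with its vehicle, ethanol. Both groups were grown in 6-well format and no other difference between them is given. The treatment time is not given in the sources used here. The study describes the samples as biological replicates, but the labels do not tie them to separate cultures, so the p-values measure the spread between these samples.

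Glycolysis splits glucose into pyruvate in a fixed series of steps, and lactate dehydrogenase and the monocarboxylate transporters turn pyruvate into lactate and export it. The pentose phosphate pathway branches off at glucose-6-phosphate and yields NADPH and ribose for nucleotides. The level of fructose-2,6-bisphosphate sets the speed of phosphofructokinase: the PFKFB enzymes make and degrade it, and TIGAR is known to degrade it, which favours the pentose phosphate branch.

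Poly(A) RNA was sequenced in read pairs, and the estimated counts summed to between 14455477 and 19532971 per vehicle sample (median 17819527) and to between 15078052 and 17442896 per nutlin sample (median 15675936). Counts are given below as CPM (counts scaled to library size) after TMM normalization, and as log2 fold changes (LFC, nutlin over vehicle) with their standard errors. The treatment was visible in MDM2, itself a p53 target, which went from 245 ± 33.2 to 5564 ± 382 CPM (mean ± SD, n = 10 each). All 8 adrenergic neuroblastoma markers had a mean of at least 10 CPM. Summed over the 6 fibroblast and mesenchymal markers, CPM ran from 28.4 to 36.4 in vehicle and from 43.0 to 54.9 in nutlin, and 1 of the 6 was called higher and 2 lower. The 3 leukocyte markers tested of 4 summed to between 2.65 and 4.15 CPM and then 7.73 and 10.2 CPM, with 2 called higher. The 4 epithelial markers summed to between 1.14 and 2.41 CPM and then 6.11 and 8.14 CPM, with 3 called higher. No leukocyte or epithelial marker had a mean of at least 10 CPM. Of all genes tested, 32.3% were called higher and 26.5% lower. The part of these markers in the results was not tested. In bulk samples, fewer expressing cells and less RNA per cell cannot be told apart.

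Most of the 34 genes were lower after nutlin, and TIGAR stood against them. At 5% FDR, 24 genes were called lower, 6 higher and 4 were not called. Of all genes tested, 58.8% were called, 26.5% lower and 32.3% higher, with a median LFC of 0.19, against a median of -0.44 over the 34 genes. Abundance matters for this reading, since 29 of the 34 genes had a mean of at least 10 CPM. Among the 9880 genes of the whole table at that abundance, 57.6% were called lower and 27.4% higher, with a median LFC of -0.22. Of the 29, 24 were called lower and 3 higher, with a median of -0.72. With an LFC of at least 1 in size as well, 6 of the 34 were lower and 1 was higher, against 5.81% and 16.2% of all genes tested, or 9.24% and 5.29% at a mean of at least 10 CPM. In 19 genes every nutlin sample was below every vehicle sample (16.6% of all genes tested), in 4 every nutlin sample was above (12.2%), and in 11 the groups overlapped. At a mean of at least 10 CPM, 19 of the 29 lay wholly below and 3 wholly above, against 41.3% and 17.1% of the 9880 genes.

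**Figure D1:**
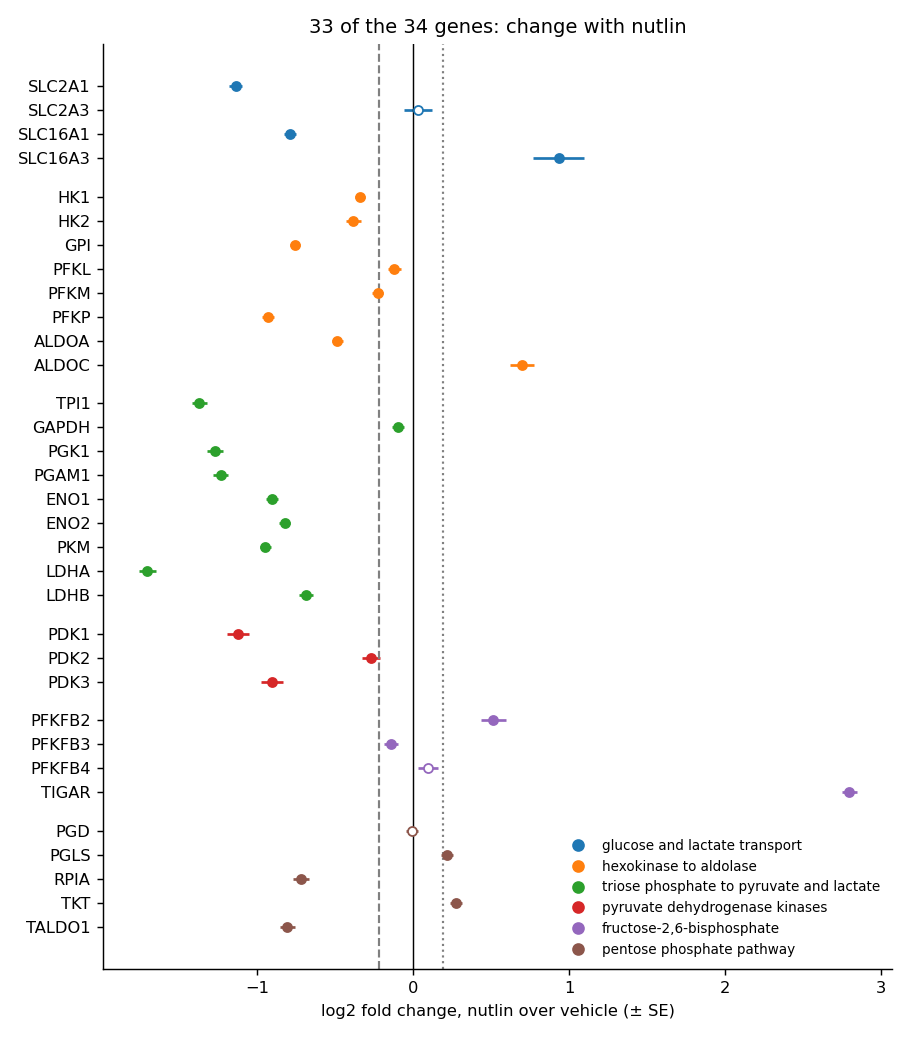
LFC (nutlin over vehicle, ± SE) of 33 of the 34 genes by role, without PDK4, which had at most 3 counts in any sample. Filled points were called at 5% FDR and open points were not; the dotted line is the median of all genes tested (0.19) and the dashed line that of genes averaging 10 CPM or more (-0.22). TIGAR lies far to the right at 2.80, and all 9 genes from triose phosphate to lactate lie to the left of zero, of which GAPDH moves to 0.06 when only transcripts of the type protein_coding are counted.

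TIGAR, the phosphatase that lowers fructose-2,6-bisphosphate, rose the most of the 34 genes. Its CPM ranged from 9.17 to 12.9 (median 10.9) in vehicle and from 70.7 to 82.7 (median 77.7) in nutlin. The groups were far apart, with every nutlin sample above every vehicle sample. On means of 11.1 ± 1.04 and 77.3 ± 3.34 CPM the fold was 6.95 and the LFC 2.80 ± 0.05 (adjusted p = 2.34e-28, edgeR quasi-likelihood F-test with Benjamini-Hochberg adjustment, as for all adjusted p-values of genes below). These values rest on 129 to 196 counts per vehicle sample and 1034 to 1274 per nutlin sample. Among all genes tested, 791 had an LFC at least as large, of which 101 had a mean of at least 10 CPM. Both TIGAR transcripts with the most TPM rose, namely the coding TIGAR-201 (LFC 2.85 ± 0.06) and TIGAR-202, which has no annotated coding sequence (LFC 3.14 ± 0.24).

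The TIGAR gene holds a known p53 binding region in its first intron. The match found there is shown because no other searched gene of the 34 had one. A p53 consensus site was searched as a pair of half-sites of 10 bases with up to 13 bases between them and no mismatch. Within 5000 bases to either side of the RefSeq start sites, TIGAR was the only 1 of 31 genes with such a site, against 1.47% of 13584 protein-coding genes tested; PFKFB2, SLC2A3 and SLC16A1 were not in the promoter table. The match lies 402 bases after the start of TIGAR-201 on the plus strand, inside intron 1 (chr12:4321304-4331279, GRCh38). In the stretch chr12:4321595-4321656 the half-sites are in capitals, with 2 bases between them. A single half-site was searched from 250 bases before to 50 after the start sites. It was found in 2 of the 31 genes, HK1 and PGAM1, both called lower, against 8.08% of the 13584 genes. A match of letters is a description and no measure of binding.
TIGAR intron 1: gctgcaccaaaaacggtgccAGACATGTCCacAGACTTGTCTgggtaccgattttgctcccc

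Of the other genes that act on fructose-2,6-bisphosphate, PFKFB2, one of the enzymes that both make and degrade it, was also higher. Its CPM ranged from 5.31 to 7.25 (median 6.15) in vehicle and from 6.70 to 10.2 (median 8.52) in nutlin, so that the groups overlapped at their edges (LFC 0.51 ± 0.08, adjusted p = 1.64e-06). PFKFB3, the family member with the strongest kinase activity, had an LFC of -0.14 ± 0.04 (adjusted p = 0.0062) with overlapping groups, and its call was lost in 7 of 13 alternative ways of processing. PFKFB4 was not called (LFC 0.09 ± 0.06, adjusted p = 0.222). Per length, TIGAR went from 6.66 ± 1.31 to 50.3 ± 3.92 TPM, whereas PFKFB3 went from 25.4 ± 3.63 to 22.2 ± 2.52 TPM, so that TIGAR passed PFKFB3. TIGAR-201 is 2782 bases long in the files and 8209 in GENCODE 44, so the TPM of TIGAR and its order among genes rest on the shorter length. TIGAR-202, without annotated coding sequence, took 11.1% to 55.8% of TIGAR TPM in vehicle and 35.4% to 47.9% in nutlin. The TPM of TIGAR and its order therefore also depend on how reads were assigned to transcripts.

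**Figure D2:**
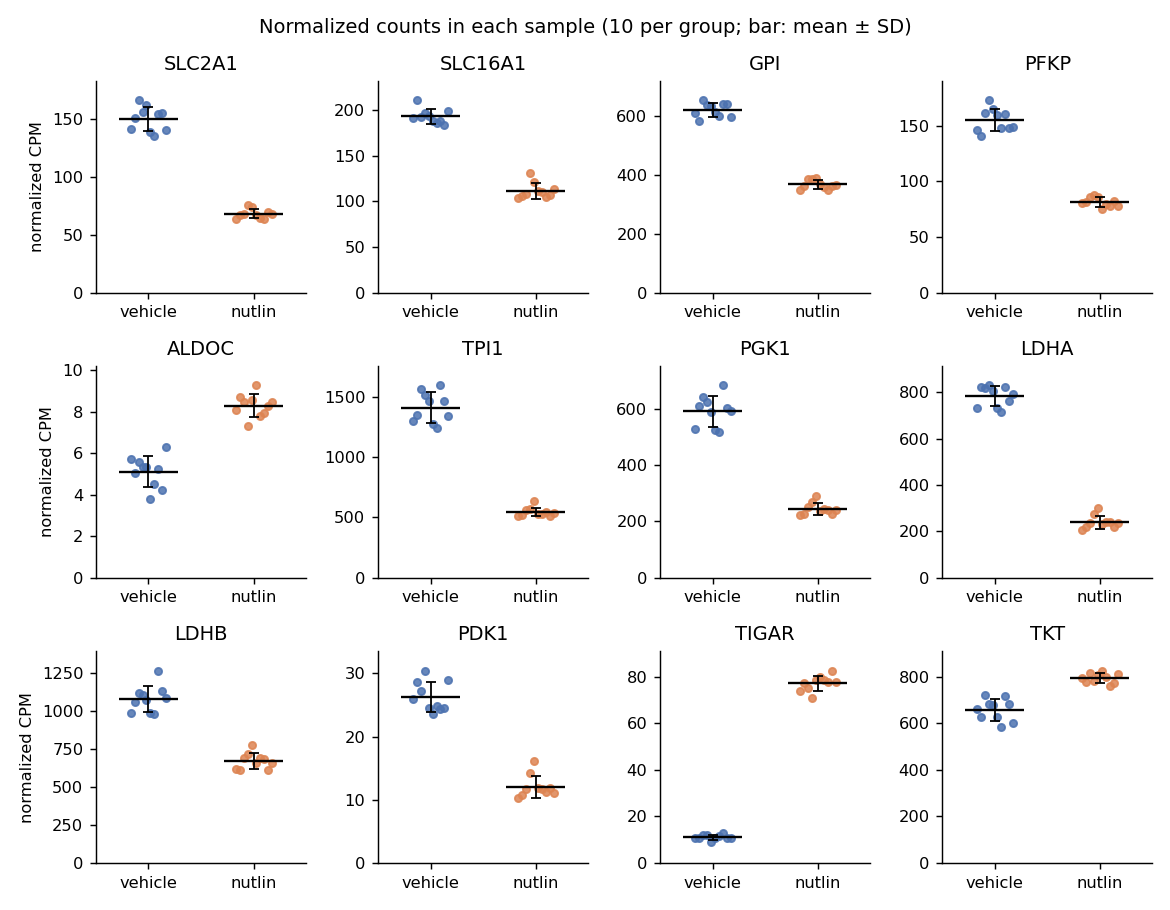
Normalized CPM in each sample for 12 of the genes, from 0, with 10 vehicle and 10 nutlin samples each; bars give mean ± SD. The groups do not overlap in any panel, and only ALDOC, TIGAR and TKT are higher in nutlin among the 12 shown.

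Entry of glucose and exit of lactate differed between the transporters. SLC2A1, which encodes the widespread glucose transporter GLUT1, ranged from 135 to 166 CPM (median 152) in vehicle and from 63.8 to 75.5 CPM (median 67.6) in nutlin. All nutlin samples were below all vehicle samples, and the LFC was -1.14 ± 0.04 (adjusted p = 2.77e-20). SLC16A1, the lactate carrier MCT1, ranged from 183 to 211 CPM (median 192) and then from 104 to 131 CPM (median 109), again without overlap (LFC -0.79 ± 0.04, adjusted p = 3.80e-17). SLC16A3, the lactate exporter MCT4, moved the other way at a far lower level, from 0.781 to 1.71 CPM (median 1.07) in vehicle to between 1.57 and 3.0 CPM (median 2.27) in nutlin. The groups overlapped slightly, and the LFC of 0.93 ± 0.17 (adjusted p = 1.40e-05) rests on 11 to 50 counts per sample. SLC2A3, the neuronal glucose transporter GLUT3, was not called (LFC 0.03 ± 0.09, adjusted p = 0.791). Its value is uncertain, because 82.0% of the counts assigned to SLC2A3 and its 3 pseudogenes in vehicle, and 81.0% in nutlin, lay on the pseudogenes.

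From hexokinase to aldolase, 7 of 8 genes were called lower and 1 higher. Of all genes tested, 26.5% were called lower and 32.3% higher, and at a mean of at least 10 CPM 57.6% and 27.4%. The hexokinases, which trap glucose by phosphorylation, were both lower by a small amount, HK1 with an LFC of -0.34 ± 0.03 and HK2 with an LFC of -0.38 ± 0.05, and neither had overlapping groups. GPI, which converts glucose-6-phosphate to fructose-6-phosphate, ranged from 581 to 653 CPM (median 623) in vehicle and from 348 to 389 CPM (median 364) in nutlin. The groups were clearly apart (LFC -0.76 ± 0.03, adjusted p = 5.56e-19). The phosphofructokinase genes, which encode the subunits of the committed step, had LFCs of unequal size. PFKP, the platelet-type subunit, ranged from 140 to 173 CPM (median 154) and then from 75.1 to 88.0 CPM (median 80.8), without overlap (LFC -0.93 ± 0.04, adjusted p = 6.62e-19). PFKM, the muscle-type subunit, had an LFC of -0.23 ± 0.04 with overlapping groups. PFKL, the liver-type subunit, had an LFC of -0.12 ± 0.04 (adjusted p = 0.0131), and this call was lost in 9 of 13 alternatives.

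The aldolases, which split fructose-1,6-bisphosphate, moved in opposite directions. ALDOA, the main form here, was lower (LFC -0.49 ± 0.04, adjusted p = 1.02e-12) without overlap of the groups. ALDOC, the brain form, ranged from 3.81 to 6.32 CPM (median 5.28) in vehicle and from 7.32 to 9.26 CPM (median 8.37) in nutlin. Every nutlin sample was above every vehicle sample, with an LFC of 0.70 ± 0.08 (adjusted p = 5.87e-09), although ALDOC remained a small share of the pair.

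From triose phosphate to lactate all 9 genes were called lower, with GAPDH the 1 gene whose direction turned with protein_coding transcripts only, and the other 8 had no overlap between the groups. All 9 had a mean of at least 10 CPM, where 57.6% of all genes were called lower and 41.3% lay wholly below. LDHA, the lactate dehydrogenase subunit that favours lactate, fell the most of all 34 genes. It ranged from 715 to 831 CPM (median 800) in vehicle and from 204 to 301 CPM (median 237) in nutlin. The groups were far apart, and the LFC was -1.70 ± 0.05 (adjusted p = 4.82e-22), a fall of 69.3%. LDHB, the subunit of heart-type lactate dehydrogenase, ranged from 981 to 1267 CPM (median 1080) and then from 609 to 776 CPM (median 671). Its groups did not overlap either (LFC -0.69 ± 0.05, adjusted p = 9.45e-14).

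TPI1, which interconverts the triose phosphates, ranged from 1238 to 1594 CPM (median 1406) in vehicle and from 511 to 634 CPM (median 533) in nutlin. It had the next largest fall after LDHA (LFC -1.37 ± 0.05, adjusted p = 9.32e-21). PGAM1, the phosphoglycerate mutase, ranged from 400 to 500 CPM (median 443) and then from 174 to 225 CPM (median 184), without overlap (LFC -1.23 ± 0.05, adjusted p = 1.10e-19). ENO1, the general enolase, ranged from 3091 to 3832 CPM (median 3394) and then from 1651 to 1978 CPM (median 1848). The fall of ENO1 (LFC -0.91 ± 0.04, adjusted p = 4.30e-18) was close to that of ENO2, the neuronal enolase. ENO2 ranged from 371 to 437 CPM (median 405) and then from 217 to 243 CPM (median 227), an LFC of -0.82 ± 0.04 (adjusted p = 1.30e-18). PKM, the pyruvate kinase gene, ranged from 1708 to 2029 CPM (median 1857) and then from 932 to 1019 CPM (median 965). Its groups were also apart (LFC -0.95 ± 0.04, adjusted p = 3.47e-20).

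PGK1, which makes the first ATP of the lower pathway, ranged from 518 to 682 CPM (median 597) in vehicle and from 222 to 290 CPM (median 240) in nutlin. The groups did not overlap and the LFC was -1.27 ± 0.05 (adjusted p = 4.68e-19). GAPDH, the step before it, differed from its neighbours in that its groups overlapped, with 5116 to 6536 CPM (median 5660) in vehicle and 5069 to 5686 CPM (median 5342) in nutlin. Its LFC was only -0.10 ± 0.04 (adjusted p = 0.0356), a call that was lost in 8 of 13 alternatives, with an LFC of 0.06 when only transcripts of the type protein_coding were counted.

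The short motif ACGTG, the core letters of the sites that hypoxia-inducible factors bind, was looked for on either strand in windows from 250 bases before to 50 after each RefSeq start site. It was found in 18 of the 31 genes with a window and in 30% of the 13584 protein-coding genes with a window. Of the 18, 14 were called lower, where 24 of all 34 genes were called lower. The 34 include PFKFB2 (called higher), SLC2A3 (not called) and SLC16A1 (called lower), which had no window, so the bases differ. Genes with several start sites have several windows, and the number of windows was not matched. The longer CACGTG, which holds ACGTG and reads the same on both strands, was found in 7 of the 31 (ALDOA, ALDOC, GAPDH, HK2, LDHA, PDK2 and PFKFB3) against 11.6%. These are counts of letters and not of bound sites. Among the genes that fell by an LFC of 1 or more, PGK1 was the 1 gene with a match in the 250 bases before a start where no annotated exon lies. That stretch is shown with its matches in capitals (chrX:78103998-78104247, plus strand, RefSeq sequence on GRCh38).
PGK1 upstream: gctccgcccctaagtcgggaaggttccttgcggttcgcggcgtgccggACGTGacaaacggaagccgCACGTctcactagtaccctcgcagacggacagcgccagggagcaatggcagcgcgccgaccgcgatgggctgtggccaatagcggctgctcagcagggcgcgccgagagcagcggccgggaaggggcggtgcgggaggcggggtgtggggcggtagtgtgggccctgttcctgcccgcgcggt

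Of the 4 pyruvate dehydrogenase kinases, which switch off the entry of pyruvate into the citric acid cycle, 3 were called lower. These 3 had a mean of at least 10 CPM, where 57.6% of all genes were called lower and 41.3% lay wholly below. PDK1 ranged from 23.6 to 30.5 CPM (median 25.4) in vehicle and from 10.3 to 16.1 CPM (median 11.8) in nutlin. PDK3 ranged from 11 to 15.6 CPM (median 14.6) and then from 6.09 to 9.06 CPM (median 7.76). Neither had overlapping groups, and the LFC was -1.12 ± 0.07 for PDK1 (adjusted p = 7.53e-15) and -0.91 ± 0.07 for PDK3 (adjusted p = 2.29e-12). PDK2 was lower by less (LFC -0.27 ± 0.06, adjusted p = 0.000225), and its groups overlapped. The call of PDK2 was lost in 1 of 13 alternatives, with protein_coding transcripts only. PDK4, with 0 to 3 counts in every sample, was not detectable at this depth and no fold is given.

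In the pentose phosphate pathway the 5 genes did not move together. PGLS, the lactonase of the oxidative branch, was slightly higher (LFC 0.22 ± 0.04, adjusted p = 3.25e-05), and PGD, the dehydrogenase that yields NADPH in the same branch, was not called (LFC -0.01 ± 0.04, adjusted p = 0.882). In the branch that rearranges sugars without oxidation, TKT, the transketolase, was higher, from 582 to 723 CPM (median 668) in vehicle to between 760 and 826 CPM (median 795) in nutlin. No TKT value of the nutlin group fell within the vehicle range (LFC 0.27 ± 0.04, adjusted p = 1.65e-07). TALDO1, the transaldolase that works beside it, ranged from 113 to 146 CPM (median 118) and then from 64.1 to 78.3 CPM (median 70.9). RPIA, which makes ribose-5-phosphate, ranged from 37.6 to 45.3 CPM (median 41.4) and then from 21.4 to 29.6 CPM (median 24.7). Both were lower without overlap, with LFCs of -0.81 ± 0.05 for TALDO1 (adjusted p = 4.33e-15) and -0.72 ± 0.05 for RPIA (adjusted p = 4.14e-13).

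Levels of different genes were compared per length, as TPM summed over the transcripts of a gene, with no test. Summed over the 34 genes, TPM ranged from 14635 to 15656 (median 15124) in vehicle and from 10273 to 10998 (median 10681) in nutlin, or 1.52% and 1.07% of all TPM. GAPDH was the most abundant in both groups (5529 ± 196 and 5132 ± 150 TPM), followed by ENO1 (2237 ± 61.8 and 1188 ± 31.0 TPM). In vehicle TPI1 came next with 1384 ± 42.5 TPM. In nutlin it had rank 6 with 543 ± 22.2 TPM. Its nutlin samples overlapped in range with those of TKT (547 ± 25.6 TPM), ALDOA (557 ± 24.6 TPM) and PKM (515 ± 21.1 TPM). LDHA went from 664 ± 28.1 to 205 ± 18.7 TPM. Its nutlin samples (178 to 241 TPM) overlapped in range with those of GPI (169 to 196 TPM, mean 186 ± 8.2). TIGAR moved from rank 27 to rank 17, where it did not differ beyond the spread from PFKP (48.7 ± 4.90 TPM), and at the low end SLC16A3 (0.627 ± 0.203 and 1.25 ± 0.329 TPM) and PDK4 came last in both groups. For PGK1 and SLC2A1 most of the TPM lay on transcripts without a full coding sequence in the annotation (58.9% on PGK1-205 and 71.1% on SLC2A1-208 in vehicle), so their levels depend on how reads were assigned to transcripts.

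**Figure D3:**
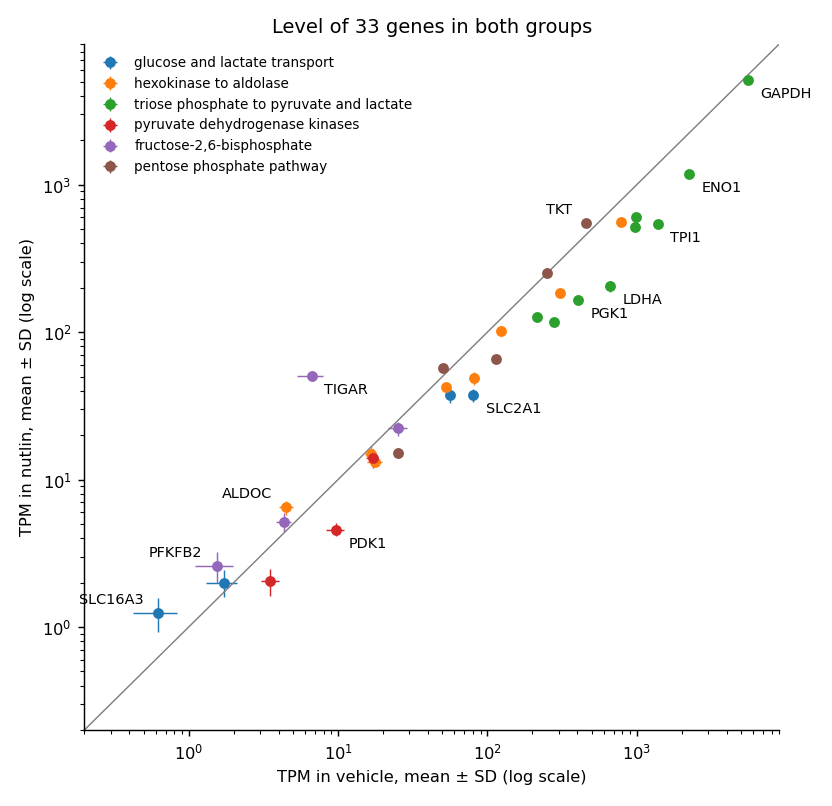
Mean TPM of 33 genes in vehicle and in nutlin on log axes (± SD, n = 10 each; PDK4 is left out as it was near 0), coloured by role, with the line of equal levels. TIGAR lies above the line at 6.66 and 50.3 TPM, TKT slightly above it, and LDHA, TPI1 and PGK1 below it.

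Where an enzyme step has several genes, their shares of the summed TPM of the step were described without a test. LDHA made up 40.3% ± 1.16 of lactate dehydrogenase TPM in vehicle and 25.3% ± 1.05 in nutlin, with no overlap, so that LDHB went from 59.7% to 74.7%. PFKP made up 36.8% ± 1.26 of phosphofructokinase TPM and then 29.4% ± 2.44, also without overlap, whereas PFKM with 55.7% ± 1.19 and 61.6% ± 3.02 overlapped. PDK2 as a share of the kinases went from 56.4% ± 2.65 to 67.5% ± 4.19 although its own count was lower. Of PDK2 TPM, 58.9% ± 6.48 in vehicle and 54.2% ± 14.8 in nutlin lay on transcripts annotated as retaining an intron. For PDK1 these were 8.24% and 3.49%, and this part was not separated in the shares. ALDOC went from 0.573% ± 0.0713 to 1.15% ± 0.131 of aldolase, ENO2 from 8.71% ± 0.308 to 9.65% ± 0.563 of enolase, and SLC16A3 from 1.11% ± 0.389 to 3.31% ± 1.01 of the pair with SLC16A1, in each case with every nutlin sample above every vehicle sample. The shares of HK1 and HK2, and those of PFKFB2, PFKFB3 and PFKFB4, overlapped between the groups.

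At the level of transcripts, 166 of the 387 transcripts of the 34 genes in the files were tested, of which 58 were lower and 24 higher. Of all 51203 transcripts tested, 22.9% were lower and 25.9% higher. A separate test asked whether a transcript moved differently from the other transcripts of its gene (edgeR diffSpliceDGE, Benjamini-Hochberg adjustment). Of 161 transcripts in 28 genes, 32 in 11 genes were called, against 8.59% of all 45742 transcripts. Neither this comparison nor that of transcripts called lower or higher was matched for abundance. A mean of at least 10 CPM was reached by 29 of the 34 genes and by 9880 of all 27697. A larger relative level was found for 26, of which 13 are of the type retained_intron and 11 protein_coding, and a smaller one for 6, all protein_coding. Most of them were minor transcripts, and 6 had a mean share of at least 10% of their gene's TPM in 1 group. Assignment of reads to transcripts is itself an estimate whose error is not in the files.

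**Figure D4:**
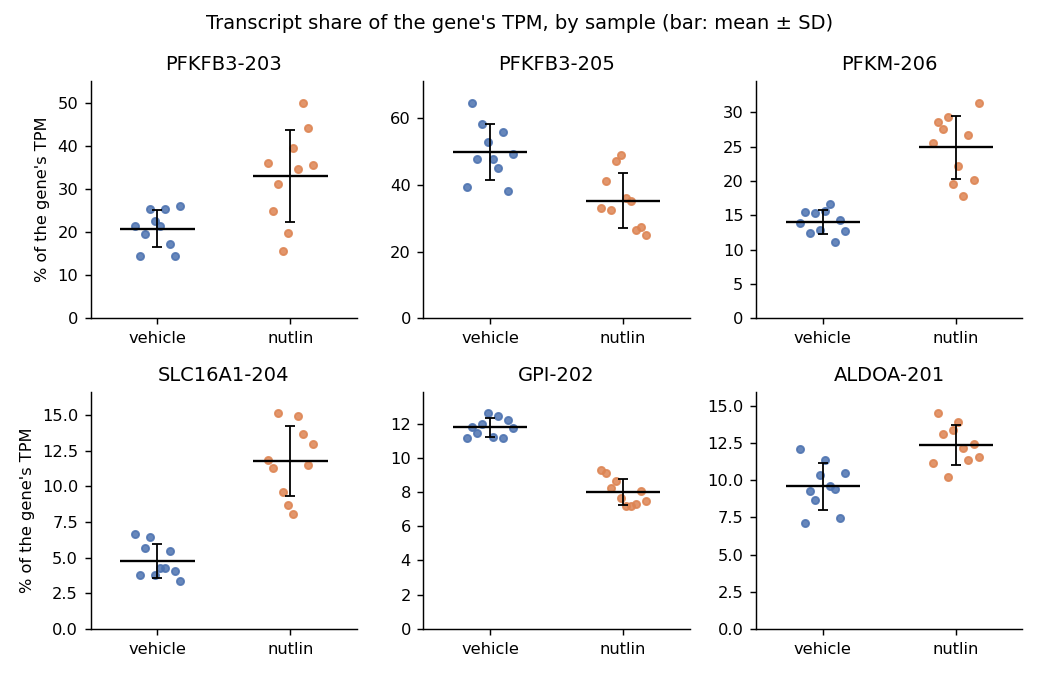
Share of the gene's TPM taken by each of the 6 transcripts with a called change and a mean share of at least 10% in 1 group, by sample (10 per group, bars give mean ± SD). PFKM-206 and SLC16A1-204 are higher in every nutlin sample and GPI-202 is lower in every nutlin sample; the PFKFB3 transcripts and ALDOA-201 overlap.

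PFKFB3 transcripts that differ in their first exon moved apart. PFKFB3-203 took 14.4% to 26.0% (median 21.5%) of PFKFB3 TPM in vehicle and 15.5% to 50.1% (median 35.1%) in nutlin (adjusted p = 0.00643). PFKFB3-205 took 38.1% to 64.7% (median 48.6%) and then 24.9% to 49.1% (median 34.2%; adjusted p = 0.0280). The ranges overlapped for both, and PFKFB3-203 exceeded PFKFB3-205 in some nutlin samples but in no vehicle sample. These transcripts share 14 exons and begin 57998 bases apart, at chr10:6144934 (PFKFB3-205) and chr10:6202932 (PFKFB3-203), so their coding sequences differ only at the start. The coding parts of the first exons are shown from the start codon in capitals, at chr10:6203261-6203336 for PFKFB3-203 and chr10:6144998-6145013 for PFKFB3-205 (GRCh38, plus strand).
PFKFB3-203 first coding exon: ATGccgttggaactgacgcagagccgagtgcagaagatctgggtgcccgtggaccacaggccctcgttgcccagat
PFKFB3-205 first coding exon: ATGcccttcaggaaag

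PFKM-206, in which an intron of 252 bases is kept (chr12:48135039-48135290), took 11.1% to 16.7% (median 14.1%) of PFKM TPM in vehicle and 17.9% to 31.4% (median 26.2%) in nutlin, without overlap (adjusted p = 3.93e-11). SLC16A1-204, which has an extra exon outside the coding sequence (chr1:112955276-112955378), went from 4.79% ± 1.18 to 11.8% ± 2.45, again without overlap (adjusted p = 0.00406). It is 2201 bases long in the files and 3849 in GENCODE 44, so the structure counted may differ from the one given here. GPI-202 went from 11.8% ± 0.540 to 8.01% ± 0.777 (adjusted p = 5.72e-05) and ALDOA-201 from 9.59% ± 1.57 to 12.4% ± 1.34 (adjusted p = 0.00325). Neither TIGAR-201 (adjusted p = 0.981) nor TIGAR-202 (adjusted p = 0.814) was called. This test found few of the changes placed in simulated data, where 200 of 51203 transcripts were changed. In the data 8.59% of 45742 were called, so recovery in the data may differ and is not known. A missing call does not show that a share stayed the same. Added up over all retained-intron transcripts of a gene, the share was higher in every nutlin sample in 6 of 29 genes (PFKM, PKM, TALDO1, ENO1, LDHA and GAPDH), lower in every nutlin sample in 0 and overlapping in 23. Of the 9335 genes tested with a retained-intron transcript, the share was wholly higher in 2.84% and wholly lower in 0.471%. At a mean of at least 10 CPM these were 4.35% and 0.623%, and the 6 genes were among 24. For PFKM it went from 20.6% ± 2.82 to 34.2% ± 5.23 and for PKM from 9.31% ± 0.687 to 15.2% ± 0.811.

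PKM makes PKM1 or PKM2 by use of exon 9 or exon 10, a choice known to differ between tissues and tumours. The exons are 167 bases each and lie on the minus strand at chr15:72203022-72203188 (exon 9) and chr15:72202454-72202620 (exon 10). They differ at 62 of 167 bases, which are in capitals below. PKM2 was the main form in both groups. Transcripts with exon 9 took 9.97% to 11.5% (median 10.8%) of PKM1 and PKM2 TPM in vehicle and 11.5% to 14.2% (median 13.4%) in nutlin, a range just above that of vehicle. As TPM, exon 9 transcripts went from 90.8 ± 5.28 to 54.8 ± 3.72 and exon 10 transcripts from 758 ± 26.9 to 361 ± 14.9. PKM-202, the main transcript with exon 10, was not called for a changed share (adjusted p = 0.657), which does not show that its share stayed the same.
PKM exon 9 (PKM1): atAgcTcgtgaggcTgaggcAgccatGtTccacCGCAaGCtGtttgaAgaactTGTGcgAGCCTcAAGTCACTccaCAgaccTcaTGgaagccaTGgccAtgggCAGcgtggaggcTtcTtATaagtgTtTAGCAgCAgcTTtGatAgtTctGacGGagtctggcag
PKM exon 10 (PKM2): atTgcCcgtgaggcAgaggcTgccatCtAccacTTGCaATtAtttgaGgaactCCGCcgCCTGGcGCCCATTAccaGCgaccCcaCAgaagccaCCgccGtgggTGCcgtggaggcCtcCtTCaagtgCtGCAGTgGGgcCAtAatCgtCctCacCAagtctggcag

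Neighbouring genes were counted from 7 lists with 83 genes, of which 79 were tested. Beside the counts below, 26.5% of all genes tested were called lower and 32.3% higher. At a mean of at least 10 CPM these shares were 57.6% and 27.4%. In the 19 other genes of glycolysis, 17 were tested, 11 of these with a mean under 1 CPM, and 6 were called higher, 3 lower and 8 not (median LFC 0.58). ENO3, the muscle enolase, was higher (LFC 0.83 ± 0.08), while BPGM, which makes 2,3-bisphosphoglycerate (LFC -0.91 ± 0.05), PGM1, which links glycogen to glycolysis (LFC -0.74 ± 0.06), and ADPGK, the ADP-dependent glucokinase (LFC -0.37 ± 0.04), were lower. Of 7 further pentose phosphate genes tested, 2 were higher and 4 lower (median LFC -0.54). PRPS2 (LFC -1.56 ± 0.05) and PRPS1 (LFC -1.47 ± 0.04), which turn ribose-5-phosphate into the nucleotide precursor PRPP, and SHPK, the sedoheptulokinase (LFC -0.79 ± 0.07), were lower. RBKS, the ribokinase (LFC 0.93 ± 0.14), and H6PD, which runs the oxidative branch in the endoplasmic reticulum (LFC 0.85 ± 0.04), were higher.

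Of 10 further sugar and monocarboxylate transporter genes tested, 6 were higher and 2 lower (median LFC 0.57). SLC2A5, the fructose transporter, went from 0.371 ± 0.194 to 2.67 ± 0.795 CPM, SLC16A7, the carrier MCT2, from 122 ± 27.7 to 201 ± 16.9 CPM, and SLC2A13, a myo-inositol transporter, had an LFC of 0.70 ± 0.08. SLC2A4, the insulin-dependent GLUT4, had an LFC of -1.35 ± 0.11. BSG, the chaperone of the lactate carriers, had an LFC of -0.67 ± 0.04 and was lower together with SLC16A1. Of the 10 genes that bring pyruvate into mitochondria and oxidize it there, 9 were lower and 1 higher (median LFC -0.51). All 10 had a mean of at least 10 CPM, where 57.6% of all genes were called lower. MPC1, a subunit of the mitochondrial pyruvate carrier (LFC -1.17 ± 0.07), DLAT (LFC -0.82 ± 0.05) and PDHA1 (LFC -0.64 ± 0.04), both of the pyruvate dehydrogenase complex, were lower, and PDP1, the phosphatase that opposes the kinases, was higher (LFC 0.24 ± 0.05).

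Of 8 gluconeogenesis genes, 1 was higher, 3 were lower and 4 were not called (median LFC -0.21), with PC, the pyruvate carboxylase, lower at an LFC of -0.81 ± 0.04, FBP1, the fructose bisphosphatase, at -0.30 ± 0.11 and G6PC3, a glucose-6-phosphatase, at -0.21 ± 0.04. Genes of the hypoxia response outside glycolysis were split, with 5 higher, 9 lower and 3 not called of 17 (median LFC -0.24). STC2, a secreted glycoprotein (LFC 3.39 ± 0.06), P4HA2, a collagen prolyl hydroxylase subunit (LFC 1.22 ± 0.09), and VEGFA, the vessel growth factor (LFC 1.12 ± 0.06), were higher. ERO1A, an oxidase of the endoplasmic reticulum (LFC -0.68 ± 0.05), BNIP3, a mitophagy receptor (LFC -0.62 ± 0.05), and EGLN3, an oxygen sensor (LFC -0.50 ± 0.14), were lower. Of 10 other metabolic genes described as p53 targets, 9 were higher and SCO2, a copper chaperone of cytochrome oxidase, was not called (LFC 0.04 ± 0.07; median of the list 1.11; 32.3% of all genes tested were called higher). Here GLS2, the liver-type glutaminase, went from 0.134 ± 0.0909 to 11.2 ± 1.03 CPM, FDXR, the ferredoxin reductase, from 9.67 ± 1.11 to 208 ± 13.2 CPM, and ACAD11, of fatty acid oxidation, from 15.5 ± 0.762 to 54.3 ± 3.16 CPM, where every nutlin sample lay above every vehicle sample.

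**Figure D5:**
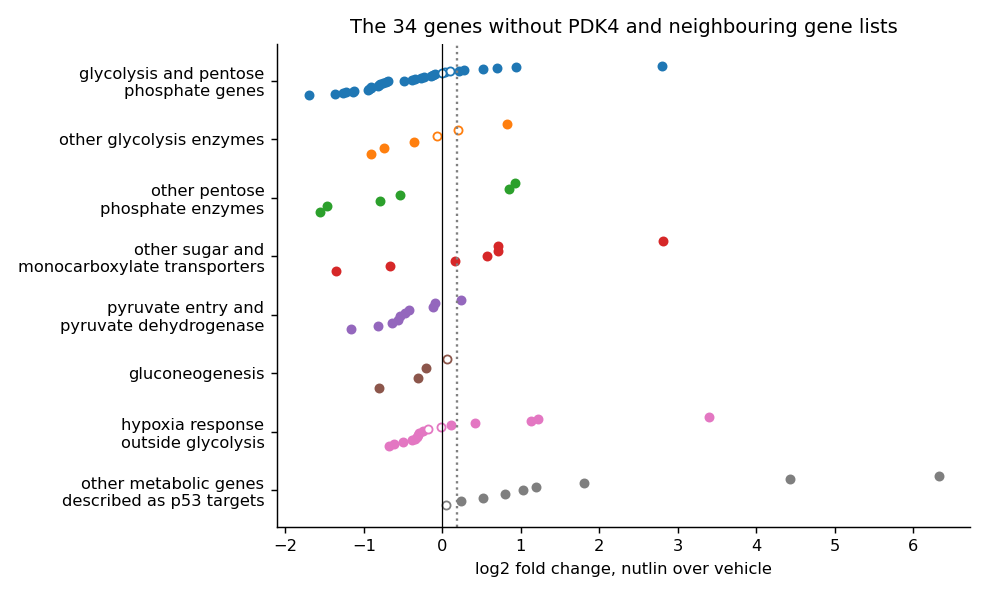
LFC (nutlin over vehicle) of each gene with a mean of at least 1 CPM, for 33 of the 34 genes and for 58 genes of the 7 neighbouring lists; filled points were called at 5% FDR, open points were not, and the dotted line is the median of all genes tested (0.19). TIGAR (2.80) lies apart from the other glycolysis and pentose phosphate genes. FDXR (4.43), GLS2 (6.33) and ACAD11 (1.81) lie on the right in the last list. Also on the right are STC2 (3.39) in the hypoxia list and SLC2A5 (2.81) in the transporter list. The position of GLS2 depends on very few vehicle counts, and that of SLC2A5 on 2 to 11 per vehicle sample.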

How the data were processed

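RNA-seq of 10 vehicle and 10 nutlin samples of NGP cells was analysed, grouped by their labels. The authors mapped reads to Ensembl release 85 transcripts of GRCh38 with kallisto 0.42.4, per the labels and methods. The deposited estimated counts are read pairs assigned per transcript and not normalized. The TPM values were scaled by the authors' kallisto runs for length and depth. The deposited effective lengths, in bases, were used in 1 alternative.

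Transcripts were matched to genes by identifier with GENCODE 44, a later release on the same build, which covered 191106 of 198968 transcripts (96.05%). Counts were summed per gene and rounded. Genes with at least 1 count in each group were tested with edgeR 4.0.16 (R 4.3.3; quasi-likelihood F-test, TMM, group as the only term) and adjusted over all genes by Benjamini-Hochberg at 5% FDR. Transcripts passing filterByExpr (minimum count 10) were tested likewise, and their relative levels with diffSpliceDGE, over all transcripts of the table. Counts from kallisto are estimates, and the error of their assignment was not modelled. Full ranges are given for TIGAR and each gene called with an LFC of at least 0.5 in size; TKT, GAPDH and the sequences shown were chosen after their values were seen. From each other list up to 3 genes per direction were named, by size among those called with a mean of at least 1 CPM. The 34 genes, the lists and the tests were chosen with earlier results of these data known.

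Sample numbers are shared by 8 vehicle and 8 nutlin samples and did not pair them. Alternatives were other filters, DESeq2 1.42.0 and its size factors, limma 3.58.1 on voom and on log2(TPM + 1 or 0.1), an effective length offset, protein_coding transcripts only, TPM over matched transcripts only, 1% FDR, the sample number as a block and, added after seeing the data, leaving out vehicle replicate 4. The fits were tested on simulated data with 200 genes or transcripts changed, fewer than were called in the data. There the gene fit recovered most of the changes put in, the transcript fit a minority and the test of relative levels few. Sequences were read from the genome (GRCh38), GENCODE 44 and RefSeq promoters.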

Additional observations from a re-analysis of the deposited data

Results flagged for a closer look

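In each group of 10 samples, the highest or lowest CPM of each of the 34 genes was compared with its nearest neighbour, relative to the range of the group. Of 68 groups, 5 held a sample that stood apart, and chance alone gives about 1 in 20. PFKL was lowest in vehicle replicate 4 with 39.3 CPM (next 45.7), and PGLS was lowest in the same sample with 34.4 CPM (next 40.5). TPI1 was highest in nutlin replicate 6 with 634 CPM (next 572), and LDHB was highest in vehicle replicate 10 with 1267 CPM (next 1129). PDK4 had 0.184 CPM in vehicle replicate 6 and 0 in the other vehicle samples.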

How the results depend on the processing

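Of the 34 genes, 28 kept their call and direction in all 13 alternatives (10 for PDK4, which filters removed in the others), and the exceptions were PFKL, GAPDH, PDK2, PFKFB3, PFKFB4 and PGD. PDK2 lost its call with protein_coding transcripts only, and PFKFB4 was called higher in 6 alternatives. With protein_coding transcripts only the LFC of GAPDH was 0.0561, that of PFKFB3 0.0127 and that of PGD 0.140, and only PGD was then called; the median over the 34 genes was -0.37. The LFC of PGD, -0.01 in the fit reported, was 0.0508 with 1 count in every sample, 0.0405 with DESeq2 size factors, 0.0406 with DESeq2, 0.00445 with the effective length offset, 0.0700 with filterByExpr, 0.00972 on log2(TPM + 0.1), 0.00969 on log2(TPM + 1), 0.0255 with the replicate block and 0.0231 in the same 16 samples without it. TIGAR stayed between 2.76 and 2.93 and LDHA between -1.71 and -1.56. With an LFC of at least 1, 2 of the 34 genes were called higher with the effective length offset and with filterByExpr.

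In the whole table, genes called higher with an LFC of at least 1 numbered 4489, but 2233 with 1 count in every sample, 2097 with filterByExpr, 1085 on log2(TPM + 1) and 2654 with protein_coding transcripts only; those lower numbered 1609, but 916 on log2(TPM + 1) and 1062 with protein_coding transcripts only. In the other lists, 2 gluconeogenesis genes were higher instead of 1 with 1 count in every sample, DESeq2 size factors, DESeq2, the effective length offset, either TPM fit and protein_coding transcripts only. With filterByExpr 3 other glycolysis genes were higher instead of 6, where fewer genes were tested, and 5 hypoxia genes were lower instead of 9 in either TPM fit. Transcripts with a smaller relative level numbered 3 with 1 count in each condition and 21 with limma voom, instead of 6. Over all transcripts 10661 were called with limma voom and 2432 at 1% FDR, instead of 3928. Apart from the construction of each alternative, the cause was not tested.

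Samples with the same number did not deviate together (8 pairs, correlation from -0.0444 to 0.0797, mean 0.00254). With the replicate block, 15 of the transcripts of the 34 genes had a larger relative level instead of 26, and 2547 over all transcripts. Without vehicle replicate 4 no call among the 34 genes changed. The TPM level of 29 genes moved beyond 1 SD with TPM over matched transcripts only, and that of 23 with protein_coding transcripts only. Depth limits PDK4 and SLC16A3 most.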
